A study of Mus musculus with 9 samples.

Results

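The 10 genes described here encode the receptors, the ligands and the sugar-modifying enzymes at the surface step of Notch signalling in the mouse. They were taken by symbol from a table of raw read counts for 56748 Ensembl genes, measured in whole brain of mouse embryos at embryonic day 14 (E14). The receptors were Notch1 (ENSMUSG00000026923, chromosome 2), Notch2 (ENSMUSG00000027878, chromosome 3) and Notch3 (ENSMUSG00000038146, chromosome 17). The ligands were Dll1 (ENSMUSG00000014773, chromosome 17), Dll3 (ENSMUSG00000003436, chromosome 7), Dll4 (ENSMUSG00000027314, chromosome 2), Jag1 (ENSMUSG00000027276, chromosome 2) and Jag2 (ENSMUSG00000002799, chromosome 12). The enzymes were the fringe glycosyltransferases Mfng (ENSMUSG00000018169, chromosome 15) and Lfng (ENSMUSG00000029570, chromosome 5). All 10 matched a single row, and all 10 were among the 17171 genes that passed the filter on low counts. The 9 libraries, from mice described as wildtype, fell into 3 groups of 3. The first group was labelled valproic acid, an anticonvulsant that inhibits histone deacetylases, and the second poly(I:C), a synthetic double-stranded RNA that mimics a viral infection. The third group was the control, treated with saline. Strain, dose, day and route of exposure, litter and sex are not given in the labels used here, nor whether replicates were separate embryos, so the p-values measure the spread between these libraries, part of which may be technical.

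Notch receptors are single-pass membrane proteins that are activated by ligands on a neighbouring cell. Binding of a Delta-like or Jagged ligand, followed by its endocytosis, exposes the receptor to ADAM proteases and then to gamma-secretase, and the freed intracellular domain enters the nucleus and joins the DNA-binding protein RBPJ. Fringe enzymes add N-acetylglucosamine to O-fucose on the receptor and thereby change how well Delta-like and Jagged ligands activate it. In the embryonic brain, radial glia express receptors, newborn neurons and intermediate progenitors present Dll1, and the signal between them keeps radial glia undifferentiated. Dll3 differs from the other Delta-like proteins in that it does not activate Notch on neighbouring cells and is found largely inside the cell, while Dll4 is best known in endothelial cells.

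Libraries held 15399974 to 19883131 counts. Markers of radial glia, intermediate progenitors and neurons were present in every group: Sox2, a neural progenitor factor, averaged 224 ± 6.55, 209 ± 3.48 and 208 ± 11.9 CPM in valproic acid, poly(I:C) and control brains, and the neuronal tubulin Tubb3 averaged 1970 ± 57.1, 2104 ± 38.2 and 1962 ± 84.9 CPM (SD, n = 3 each). CPM are read counts divided by library size, with the sizes adjusted between libraries. The sex signal was unevenly spread over the groups. Valproic acid libraries had 981 to 1055 CPM of Xist, which is transcribed from the inactive X in females. Poly(I:C) replicate 3 had 1048 CPM of it and no other library exceeded 0.236 CPM. A Y-linked sum over 4 genes (Uty, Ddx3y, Eif2s3y, Kdm5d) reached 196 to 201 CPM in replicates 1 and 2 of poly(I:C) and of control and was 0 in the other 5 libraries, so control replicate 3 carried neither signal. Sex and valproic acid exposure therefore cannot be told apart in the comparison with control. Because whole brain was sequenced, a change in the number of cells of a type and a change in RNA per cell cannot be told apart either.

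Per kilobase of exon, Mfng and Dll1 stood above the other genes and Dll4 below them in every group. In valproic acid brains Mfng averaged 21.1 ± 1.30 CPM per kilobase, in poly(I:C) brains 18.5 ± 1.11 and in control brains 17.2 ± 0.139 (SD, n = 3 each). Dll1 followed with 19.0 ± 0.937, 16.1 ± 0.688 and 16.2 ± 0.0386 CPM per kilobase. In controls the order below them was Lfng (10.4 ± 0.847), Notch1 (9.96 ± 0.443), Jag2 (9.42 ± 0.223), Notch2 (8.68 ± 0.205), Dll3 (8.46 ± 0.489), Notch3 (8.14 ± 0.381), Jag1 (5.94 ± 0.179) and Dll4 (2.26 ± 0.275). The libraries of neighbours in that order overlapped between Lfng and Notch1, between Notch1 and Jag2, between Notch2 and Dll3 and between Dll3 and Notch3. Within every control library Lfng was above Notch1 and Notch1 above Jag2. The order of Notch2 and Dll3 and that of Dll3 and Notch3 varied between the control libraries. Differences between neighbours were not tested. In valproic acid brains Notch1 (13.2 ± 1.16) ranked 3 and Notch2 (11.5 ± 1.56) ranked 5, against ranks 4 and 6 in controls. In poly(I:C) brains their ranks were 3 and 7. The valproic acid libraries of Notch1 and Lfng, of Lfng and Notch2 and of Notch2 and Jag2 overlapped. Exon lengths came from an annotation on an earlier genome build, and the transcript forms in use were not measured, so the order between genes of similar level is approximate.

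**Figure D1:**
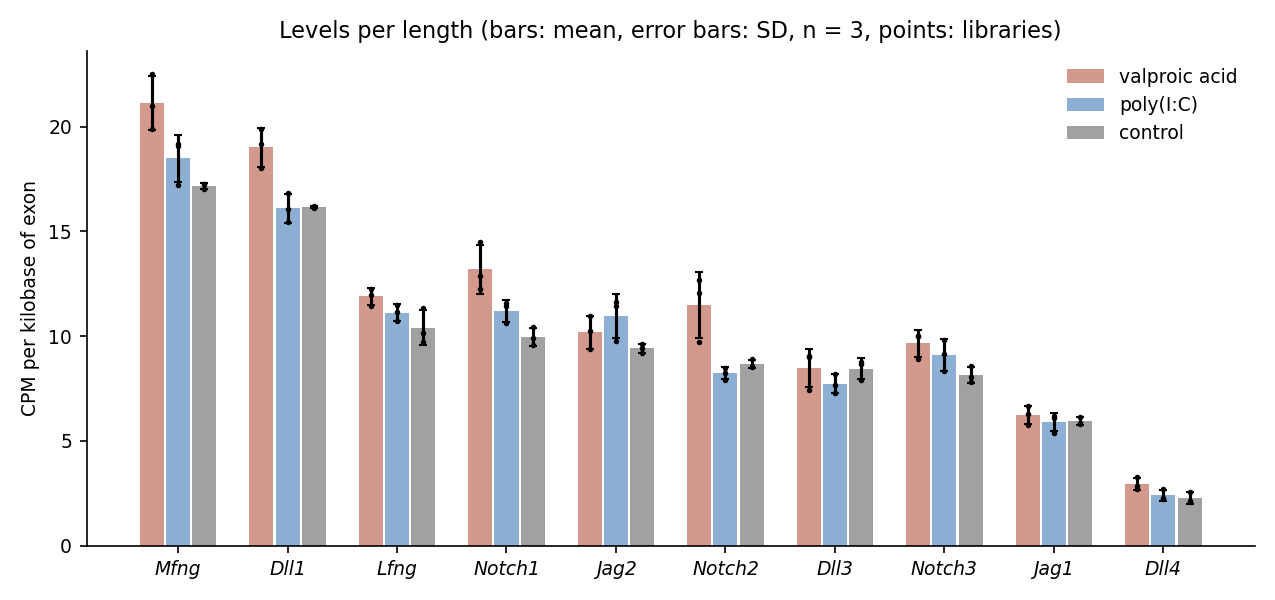
Mean level of each gene in CPM per kilobase of exon (vertical axis) by group, with SD error bars (n = 3) and the libraries as points, in the order of the control means. Mfng and Dll1 are the tallest and Dll4 the shortest in all 3 groups, from 21.1 CPM per kilobase for Mfng in valproic acid brains to 2.26 for Dll4 in controls.

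All 3 receptors, the ligand Dll1 and the fringe enzyme Mfng were higher in valproic acid brains than in control brains, and no gene of the 10 was lower. A gene was called at an edgeR adjusted p under 0.05 over all genes tested. By that rule 5 of 10 were called, all higher, beside 6.35% of all tested genes in either direction, 3.57% higher and 2.78% lower. An unadjusted p under 0.05 was reached by 7 of 10, beside 22.1% of all tested genes. The groups did not overlap, with valproic acid higher, for 7 of 10 genes, beside 12.6% of all tested genes. The median log2 change of the 10 was 0.24, against -0.0033 over all tested genes. The 10 genes were chosen with earlier results of these data known, and the shares over all tested genes were not matched for level. The counts beside these shares are therefore a description.

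Notch1, the main receptor of neural progenitors, was at 174, 206 and 183 CPM in valproic acid brains and at 136, 149 and 141 CPM in control brains. Every valproic acid library lay above every control. Notch1 averaged 188 ± 16.6 CPM in valproic acid brains and 142 ± 6.30 CPM in control brains (SD, n = 3 each), 1.32-fold higher (log2 change 0.41, SE 0.0577, edgeR adjusted p = 0.00125). Notch2, also expressed by neural progenitors, was at 105, 137 and 130 CPM in valproic acid brains and at 92.0, 96.1 and 92.7 CPM in control brains. The groups were apart, but valproic acid replicate 1 stood closer to the controls than to the other valproic acid libraries. The log2 change was 0.40 (SE 0.0745, edgeR adjusted p = 0.00631), close to that of Notch1. Notch3, which is known from mural cells of blood vessels as well as from progenitors, was at 72.1, 81.1 and 81.1 CPM in valproic acid brains and at 65.1, 63.2 and 69.2 CPM in control brains. Its change was smaller, 0.25 on the log2 scale (SE 0.0664, edgeR adjusted p = 0.0400). The calls of Notch1 and Notch2 were kept in all 6 fits that left out a library of either group. For Notch3 it was lost without control replicate 1, 2 or 3 or valproic acid replicate 2 or 3 (edgeR adjusted p of 0.118, 0.122, 0.0539, 0.114 and 0.120), and without poly(I:C) replicate 3, which shares in the estimate of spread (0.0554).

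The 300 bases around the start of the 3 receptor genes are shown because these genes rose together under valproic acid, and that of Lfng because the RBPJ core was found there. RefSeq supplied them on GRCm38.p6, not the build of the counts, as 250 bases before and 50 after the annotated start: Notch1 at chr2:26503773-26504072 (minus strand), Notch2 at chr3:98013288-98013587 (plus strand), Notch3 at chr17:32166841-32167140 (minus strand) and Lfng at chr5:140607091-140607390 (plus strand). Capitals mark the GC box core GGGCGG and the RBPJ core TGGGAA on either strand.
Notch1: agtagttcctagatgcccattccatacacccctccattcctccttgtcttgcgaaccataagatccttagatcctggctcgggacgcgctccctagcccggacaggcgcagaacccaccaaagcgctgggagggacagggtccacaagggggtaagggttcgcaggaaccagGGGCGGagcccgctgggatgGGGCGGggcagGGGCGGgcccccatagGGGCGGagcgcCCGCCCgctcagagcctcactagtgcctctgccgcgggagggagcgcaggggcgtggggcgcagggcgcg
Notch2: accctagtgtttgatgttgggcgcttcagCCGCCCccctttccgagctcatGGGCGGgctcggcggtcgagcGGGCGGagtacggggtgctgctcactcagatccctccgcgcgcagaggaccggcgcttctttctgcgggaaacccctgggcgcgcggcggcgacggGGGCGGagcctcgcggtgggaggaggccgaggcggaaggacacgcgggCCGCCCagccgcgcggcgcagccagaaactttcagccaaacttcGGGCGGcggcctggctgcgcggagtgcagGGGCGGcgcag
Notch3: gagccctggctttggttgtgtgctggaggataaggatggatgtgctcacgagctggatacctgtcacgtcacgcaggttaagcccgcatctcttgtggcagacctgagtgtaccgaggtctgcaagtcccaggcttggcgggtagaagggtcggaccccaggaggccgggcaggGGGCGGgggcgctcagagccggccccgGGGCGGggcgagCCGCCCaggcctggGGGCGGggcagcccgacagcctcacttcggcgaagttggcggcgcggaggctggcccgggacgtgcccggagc
Lfng: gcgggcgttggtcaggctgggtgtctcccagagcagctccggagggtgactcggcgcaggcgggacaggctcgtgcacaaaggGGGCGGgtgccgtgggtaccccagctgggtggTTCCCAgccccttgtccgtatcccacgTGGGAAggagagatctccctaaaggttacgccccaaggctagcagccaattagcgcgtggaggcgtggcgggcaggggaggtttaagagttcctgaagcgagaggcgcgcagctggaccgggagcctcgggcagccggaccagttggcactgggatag

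GGGCGG, searched on both strands, was found 5 times in the Notch1 window, 7 times in that of Notch2 and 4 times in that of Notch3, and in 35.7% of all 32851 windows of this length in the table. It was not particular to the genes that rose: the Jag2 window held 5 matches, some overlapping, and neither Dll1 window held any. GC content was 68.3%, 73.0% and 70.0% for the 3 receptors and 86.0% for Jag2, against a median of 52.7% over all windows. TGGGAA occurred 2 times in the Lfng window, in none of the other 9 windows of these genes, and in 25.6% of all windows. TATAAA, searched in the same way, was in none of the 10 windows and in 13.6% of all. The 10 windows belong to 9 genes, with a pair for Dll1, and Mfng was not searched. These matches describe the letters in the windows.

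Dll1, the ligand through which newborn neurons signal back to radial glia, was at 76.0, 83.9 and 80.8 CPM in valproic acid brains and at 68.3, 68.3 and 68.0 CPM in control brains. The controls were nearly identical and every valproic acid library lay above them. Dll1 was 1.18-fold higher in the exposed brains, a log2 change of 0.23 with an SE of 0.0508 (edgeR adjusted p = 0.0155). Leaving out either control replicate 1 or valproic acid replicate 2 ended the call (edgeR adjusted p = 0.0522 and 0.0537). Dll4 was at 10.5, 12.6 and 11.1 CPM in valproic acid brains and at 8.26, 9.93 and 7.96 CPM in control brains. The groups did not overlap, and its log2 change of 0.39 was close to that of Notch1, but with 566 and 476 counts in all per group its error was wider (SE 0.128, 95% interval 0.11 to 0.66, edgeR adjusted p = 0.0858). Jag1, a ligand with roles in progenitor domains and vessels, was at 36.5, 33.6 and 38.7 CPM in valproic acid brains and at 33.9, 35.8 and 34.2 CPM in control brains. Its groups overlapped, and the fit gave a log2 change of 0.07 with a 95% interval of -0.09 to 0.22 (edgeR adjusted p = 0.637). Jag2 was at 76.3, 65.3 and 71.3 CPM in valproic acid brains and at 65.9, 67.0 and 63.9 CPM in control brains, with a log2 change of 0.11 (95% interval -0.04 to 0.26, edgeR adjusted p = 0.367). Dll3 averaged 24.2 ± 2.64 CPM in valproic acid brains and 24.1 ± 1.39 CPM in control brains (SD, n = 3 each), a log2 change of 0.01 (95% interval -0.18 to 0.20, edgeR adjusted p = 0.974). Changes of the size seen for Notch1 thus lay outside the 95% intervals of Jag1, Jag2 and Dll3 but inside that of Dll4. The differences in change between genes were not tested.

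Mfng, the manic fringe enzyme, was at 63.9, 59.6 and 56.5 CPM in valproic acid brains and at 48.3, 49.1 and 49.0 CPM in control brains. All valproic acid libraries stood above the controls, and Mfng was 1.23-fold higher (log2 change 0.30, SE 0.0589, edgeR adjusted p = 0.00921), a call kept in all 6 fits without a library of either group. Lfng, the lunatic fringe enzyme, was at 30.7, 28.7 and 30.0 CPM in valproic acid brains and at 24.3, 28.4 and 25.5 CPM in control brains. Its groups were separated by 28.7 against 28.4 CPM only, and its log2 change of 0.19 was not called (SE 0.0735, 95% interval 0.04 to 0.35, edgeR adjusted p = 0.133). The third fringe gene, Rfng, which was outside the 10, pointed the other way without a call: 55.6 ± 1.94 CPM in valproic acid brains and 60.7 ± 1.06 CPM in control brains (SD, n = 3 each; log2 change -0.13, edgeR adjusted p = 0.241).

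**Figure D2:**
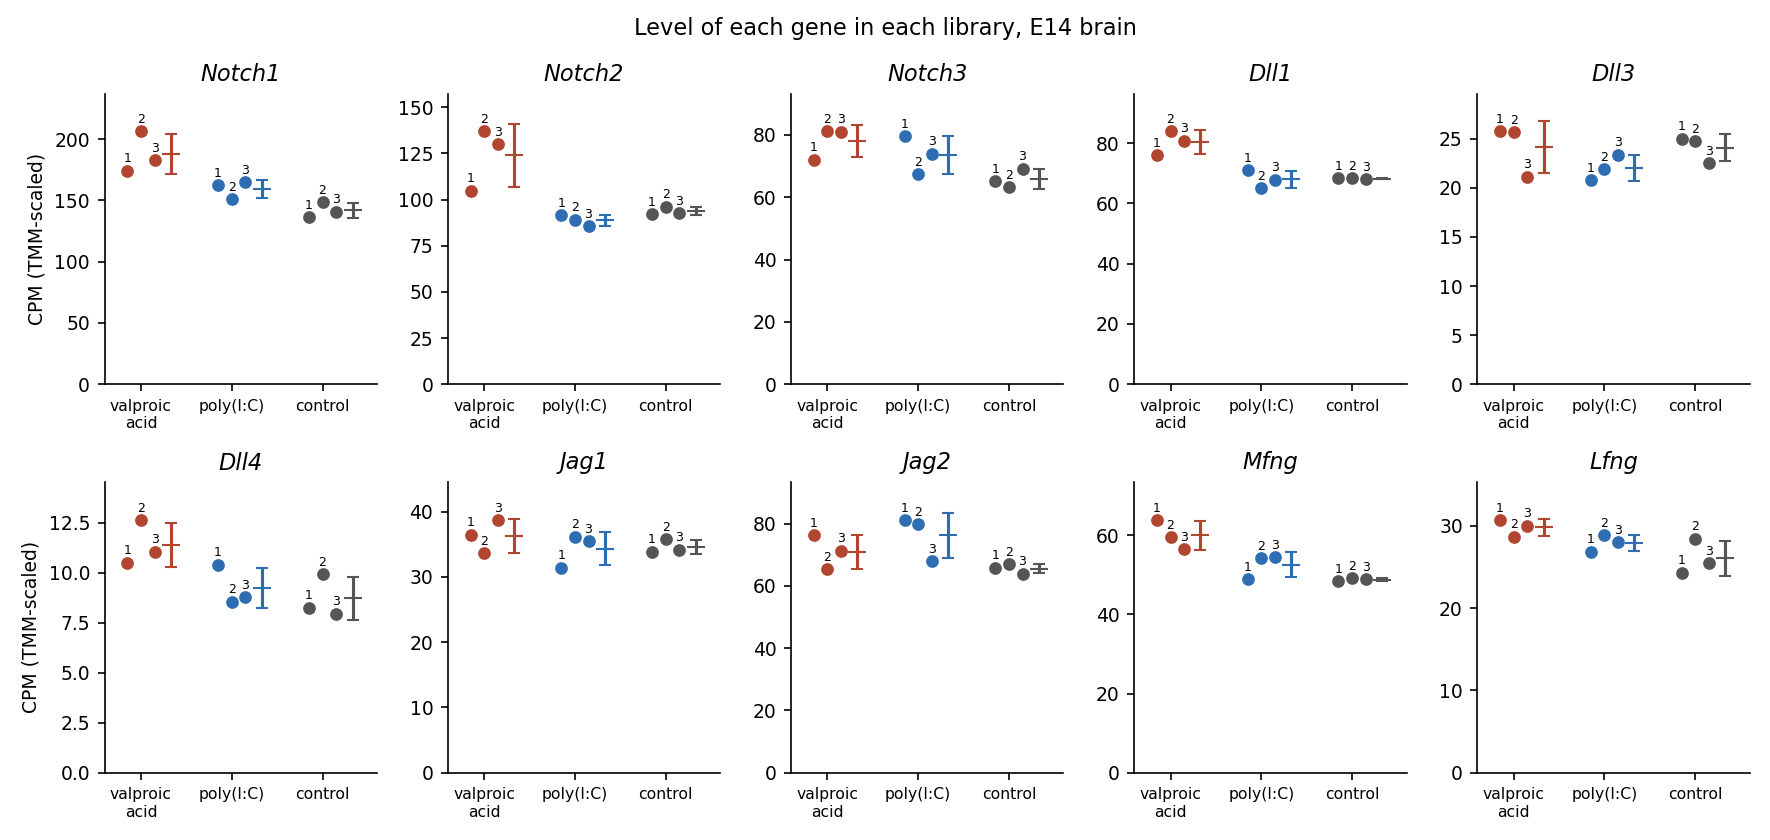
CPM of each gene (vertical axes, from 0) in each library, numbered by replicate, with the group mean and SD (n = 3) beside the points. Valproic acid points lie above all control points for Notch1, Notch2, Notch3, Dll1, Dll4, Mfng and Lfng, with Notch2 at 105 to 137 CPM against 92.0 to 96.1 CPM.

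Sex-linked signal moved with the valproic acid group, and the part it plays in these changes was not tested. The following values describe how the libraries stood. Poly(I:C) replicate 3, the sole library with Xist outside the valproic acid group, did not stand alike for all of the 5 called genes. It had the highest Notch1 (165 CPM) and Mfng (54.5 CPM) of the libraries outside that group and its Notch3 of 74.0 CPM was above the controls, while its Dll1 of 67.8 CPM was below the controls and its Notch2 of 85.4 CPM was the lowest of all 9 libraries. The 3 valproic acid libraries lay above that library for 6 of 10 genes (Notch1, Notch2, Dll1, Dll4, Mfng and Lfng), beside 27.3% of all tested genes, and below it for 0. Control replicate 3, without Y-linked reads, lay between the other controls for Notch1 (141 CPM), Notch2 (92.7 CPM) and Mfng (49.0 CPM), above them for Notch3 (69.2 CPM) and below them for Dll1 (68.0 CPM). With the summed Y-linked expression as a covariate, Notch1 and Notch2 stayed called against control (log2 changes 0.39 and 0.44, edgeR adjusted p = 0.0216 and 0.0362) and Notch3, Dll1 and Mfng did not (0.21, 0.24 and 0.27, edgeR adjusted p = 0.233, 0.0953 and 0.0933). With Xist as a covariate 0 of 10 were called, with log2 changes of 0.34, 0.49, 0.24, 0.24 and 0.22 for Notch1, Notch2, Notch3, Dll1 and Mfng and edgeR adjusted p of 0.284 to 0.580. In that fit the standard error of Notch1 was 0.108, against 0.0577 without the covariate. Within groups, Xist differed mainly between poly(I:C) replicate 3 and the other poly(I:C) replicates. Y-linked expression differed within groups only through poly(I:C) replicate 3 and control replicate 3, and it treats that control like the libraries with Xist. Calls kept or lost with these covariates therefore do not separate sex from exposure.

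**Figure D3:**
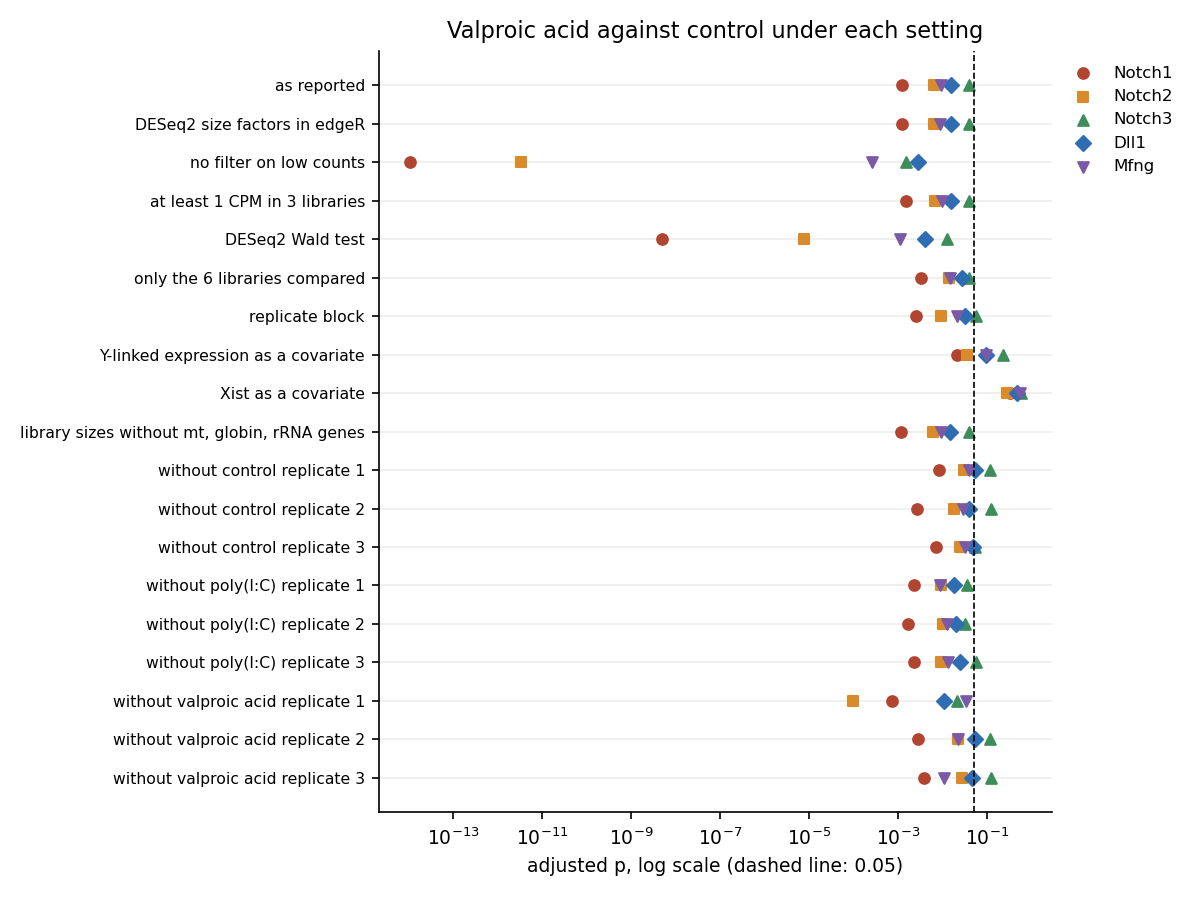
Adjusted p (horizontal axis, log scale) of the 5 genes called for valproic acid against control, under each processing setting and with each library left out. Notch1 and Notch2 stay left of the dashed line at 0.05 in all settings but the Xist covariate (0.329 and 0.284), while Notch3 crosses it in 9.

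In poly(I:C) brains 0 of 10 genes were called against control by edgeR, beside 0.536% of all tested genes, and 3 of 10 passed an unadjusted p of 0.05, beside 12% of all tested genes. DESeq2 also called 0, while a fit without a filter on low counts called Notch1 and Jag2 (edgeR adjusted p = 0.0377 and 0.0189). The same fit also called Rbpj (edgeR adjusted p = 2.19e-06), at 102, 59.3 and 56.5 CPM in poly(I:C) brains against 60.6, 54.0 and 57.9 CPM in control brains. Those groups overlapped, so a call of that fit can rest on a single library. The median log2 change of the 10 was 0.09, with 6 above 0. Jag2 showed the widest difference, at 81.2, 79.7 and 67.9 CPM in poly(I:C) brains against 65.9, 67.0 and 63.9 CPM in control brains. The groups did not overlap, with poly(I:C) replicate 3 close to the controls (log2 change 0.22, 95% interval 0.07 to 0.37, edgeR adjusted p = 0.214). Notch1 was at 163, 151 and 165 CPM in poly(I:C) brains, again above all controls (log2 change 0.17, 95% interval 0.05 to 0.29, edgeR adjusted p = 0.244). Notch2 was at 91.7, 89.1 and 85.4 CPM in poly(I:C) brains, below all controls (log2 change -0.08, 95% interval -0.24 to 0.08, edgeR adjusted p = 0.740). Separation without overlap was seen for 2 of 10 genes with poly(I:C) higher and 1 of 10 with it lower, beside 9.60% and 8.83% of all tested genes (18.4% in either direction). Notch3, at 79.6, 67.3 and 74.0 CPM in poly(I:C) brains, overlapped with the controls (log2 change 0.16, edgeR adjusted p = 0.343).

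The remaining poly(I:C) changes were small. Dll1 had 70.9, 65.1 and 67.8 CPM in poly(I:C) brains, on both sides of the controls (log2 change -0.01, 95% interval -0.11 to 0.10, edgeR adjusted p = 0.983). Jag1 had a log2 change of -0.01 (95% interval -0.16 to 0.14), Dll3 of -0.13 (-0.32 to 0.06), Dll4 of 0.09 (-0.19 to 0.36), Mfng of 0.11 (-0.02 to 0.23) and Lfng of 0.10 (-0.06 to 0.25). Among the libraries with Y-linked reads, replicates 1 and 2 of each group, Jag2 averaged 80.5 CPM in poly(I:C) brains and 66.4 CPM in control brains, and Notch1 157 and 142 CPM, and these sets did not overlap. Notch3 averaged 73.5 and 64.2 CPM in the same libraries, also without overlap. Dll3 was lower in the poly(I:C) libraries of this set, at 21.3 against 24.9 CPM in controls, and so was Notch2, at 90.4 against 94.1 CPM, both without overlap. In all 3 of 10 genes were higher and 2 lower in this way, beside 20.3% and 19.8% of all tested genes.

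The exposures were then compared with each other, which asks whether a change under valproic acid differs from that under poly(I:C), since the controls cancel. Sex-linked signal was uneven here too, as Xist was high in every valproic acid library but only in poly(I:C) replicate 3. Its part in these differences was not tested. Notch2 showed the largest difference of the 10. It averaged 124 ± 16.8 CPM in valproic acid brains and 88.7 ± 3.14 CPM in poly(I:C) brains (SD, n = 3 each), a 1.40-fold difference (log2 change 0.48, SE 0.0748, edgeR adjusted p = 0.00436). Its call was kept in all 6 fits without a library of either group. Dll1 (log2 change 0.24, SE 0.0508, edgeR adjusted p = 0.0250) and Notch1 (0.24, SE 0.0575, edgeR adjusted p = 0.0434) were higher under valproic acid as well. In all, 3 of 10 were called, beside 2.59% of all tested genes, and 5 of 10 had valproic acid above poly(I:C) without overlap, beside 10.5% (21.9% in either direction).

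The calls of Dll1 and Notch1 in that comparison did not hold when single libraries were left out. Dll1 was lost without poly(I:C) replicate 2 or 3 or valproic acid replicate 2 or 3 (edgeR adjusted p = 0.132, 0.0785, 0.0744 and 0.0648). Notch1 was lost without any of poly(I:C) replicates 1, 2 and 3 (0.0835, 0.194 and 0.0828), valproic acid replicates 2 and 3 (0.120 and 0.0704) and control replicates 1 and 3 (0.0503 and 0.0572), by edgeR adjusted p. Mfng was higher without overlap but not called (log2 change 0.19, 95% interval 0.07 to 0.32, edgeR adjusted p = 0.0989). Notch3 was not called (0.08, 95% interval -0.06 to 0.23, edgeR adjusted p = 0.567), so its difference between the exposures was not detectable here. Jag2 alone had the lower mean under valproic acid, at 71.0 ± 5.47 CPM against 76.3 ± 7.29 CPM in poly(I:C) brains (SD, n = 3 each; log2 change -0.10, 95% interval -0.25 to 0.04, edgeR adjusted p = 0.488). With Y-linked expression as a covariate Notch2 stayed called (log2 change 0.52, edgeR adjusted p = 0.0280), and with Xist 0 of 10 were (Notch2 0.54, edgeR adjusted p = 0.0937).

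**Figure D4:**
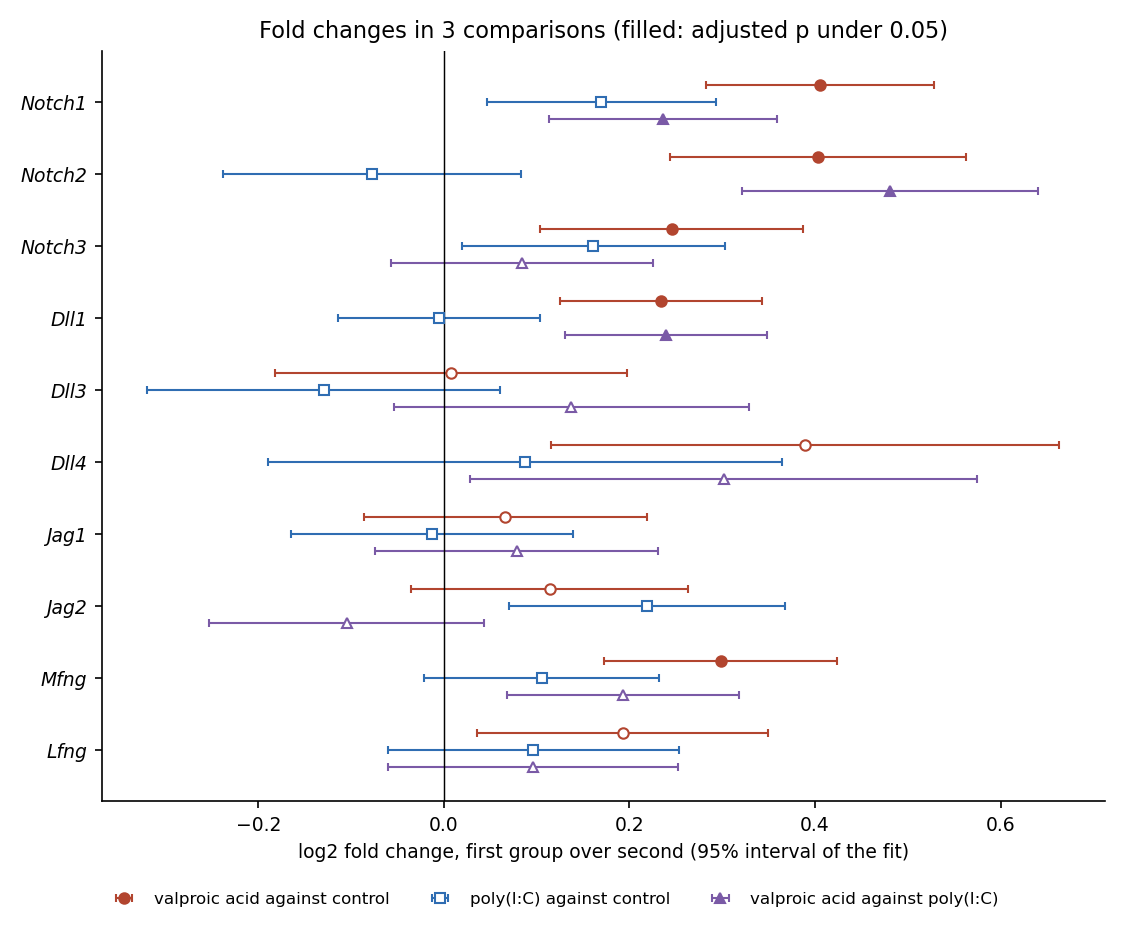
Log2 fold change of each gene (horizontal axis) with the 95% interval of the fit, for valproic acid against control (circles), poly(I:C) against control (squares) and valproic acid against poly(I:C) (triangles), filled where called. Filled symbols are those of Notch1, Notch2, Notch3, Dll1 and Mfng in the first comparison and of Notch1, Notch2 and Dll1 in the last. The comparisons share libraries and are not independent.

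Within the valproic acid group the genes did not vary alike. Valproic acid replicate 2 was the highest of all 9 libraries for Notch1, Notch2, Notch3, Dll1 and Dll4, and replicate 1 was the lowest valproic acid library for the same 5 genes. For Mfng replicate 1 was instead the highest of all 9 libraries at 63.9 CPM. Jag1 and Jag2 were lowest in replicate 2 among the valproic acid libraries. The ratio of Notch1 to Jag1 in CPM was accordingly 4.77, 6.13 and 4.72 in valproic acid brains, 5.18, 4.18 and 4.64 in poly(I:C) brains and 4.02, 4.15 and 4.12 in control brains. The ratio of Notch1 to Dll1 was 2.29, 2.46 and 2.26 in valproic acid brains, 2.29, 2.32 and 2.43 in poly(I:C) brains and 1.99, 2.17 and 2.07 in control brains, so that every exposed library lay above every control. The ratio of Notch1 to Notch2 was 1.66, 1.51 and 1.41 in valproic acid brains, 1.78, 1.70 and 1.93 in poly(I:C) brains and 1.48, 1.55 and 1.52 in control brains. It was highest in the poly(I:C) libraries, where Notch1 stood above the controls and Notch2 below. The ratio of Dll1 to Jag1 was 2.08, 2.49 and 2.09 in valproic acid brains, 2.26, 1.80 and 1.91 in poly(I:C) brains and 2.02, 1.91 and 1.99 in control brains. Valproic acid libraries lay above the controls in this ratio, and poly(I:C) libraries overlapped with both. These ratios were not tested.

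Likeness of pattern was measured as the root mean square difference in log2 CPM over the 9 libraries, each gene centred on its mean, among 10568 named genes of at least 10 CPM. Among the 3 genes closest to Notch1 were Gm9761 (0.0343) and Chd7 (0.0515), a chromatin remodeller gene. Among the 3 closest to Dll1 were Gm9794 (0.0321) and the Wnt receptor gene Fzd8 (0.0377), and closest to Jag1 were Colgalt1 (0.0272), Yars (0.0339) and Nol6 (0.0428). The other genes of the 10 were farther off. Of those with at least 10 CPM, Dll1 ranked 118 and Notch3 200 in likeness to Notch1, and Jag2 was farthest at rank 6256.

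Of 54 other Notch pathway genes listed by role, 52 were tested. Under valproic acid against control 5 were called higher and 1 lower, beside 3.57% and 2.78% of all tested genes, with a median log2 change of 0.05. Those shares apply to the list counts of that comparison below as well. The poly(I:C) brains had 1 higher against control, beside 0.262% of all tested genes, and the exposures differed in 1, higher under valproic acid, beside 1.42%. The relative with calls was Dlk1, a Delta-like protein without the domain that binds Notch in canonical ligands. It averaged 115 ± 4.33 CPM in valproic acid brains, 105 ± 4.17 CPM in poly(I:C) brains and 88.4 ± 3.78 CPM in control brains (SD, n = 3 each). Against control its log2 change was 0.37 for valproic acid (edgeR adjusted p = 7.28e-04) and 0.24 for poly(I:C) (edgeR adjusted p = 0.0428). The call for valproic acid was kept in all 6 fits without a library of either group, and that for poly(I:C) was lost in each of the 6 such fits, whichever control or poly(I:C) replicate (1, 2 or 3) was left out (edgeR adjusted p of 0.0560 to 0.189). Notch4, the receptor of endothelial cells, was at 18.1 ± 0.866, 17.1 ± 0.684 and 17.3 ± 1.05 CPM in valproic acid, poly(I:C) and control brains and was not called in any comparison (edgeR adjusted p of 0.653 to 0.967).

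The enzymes that cut and glycosylate the receptors gave no call in the reported edgeR fit, in any comparison. Called were 0 of 9 cleavage genes and 0 of 6 tested O-glycosylation genes. An unadjusted p of 0.05 was passed by 2 and 0 of them for valproic acid against control. The counts were 0 and 2 for poly(I:C) against control, and 0 and 0 between the exposures. The shares of all tested genes at that p were 22.1%, 12% and 16.6% in the same comparisons. DESeq2 called 0 of them as well. The cleavage gene Psenen was at 45.2, 44.7 and 38.7 CPM in valproic acid brains and 37.7, 36.1 and 36.5 CPM in control brains. Its log2 change was 0.22 (edgeR adjusted p = 0.0807). Psenen passed with no filter on low counts (edgeR adjusted p = 0.0485) and without valproic acid replicate 3 (0.0393). Adam10, the protease of the first activating cut, was at 177 ± 7.65, 173 ± 8.03 and 172 ± 3.81 CPM in valproic acid, poly(I:C) and control brains (SD, n = 3 each). Of 11 genes of ligand endocytosis and receptor turnover, Neurl1a, a ubiquitin ligase of Notch ligands, was lower under valproic acid at 17.6 ± 1.21 CPM against 22.7 ± 1.72 CPM in control brains (log2 change -0.36, edgeR adjusted p = 0.0292). That call was lost without control replicate 2 or 3 or valproic acid replicate 2 or 3 (edgeR adjusted p up to 0.0982).

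Of 13 genes of the nuclear complex 3 were called higher under valproic acid against control and 0 lower, with a median log2 change of 0.12. Among them were the acetyltransferase coactivators Ep300 (0.27, edgeR adjusted p = 0.00882) and Crebbp (0.17, edgeR adjusted p = 0.0265), which serve many pathways besides Notch. The call of Ep300 was kept in all 6 fits without a library of either group. That of Crebbp was lost without control replicate 1 or 3 or valproic acid replicate 2 or 3 (edgeR adjusted p up to 0.100). Of 8 genes listed as Notch targets 1 was called, Gas1. It was at 49.8 ± 1.67 CPM in valproic acid brains and 42.4 ± 2.98 CPM in control brains (SD, n = 3 each, edgeR adjusted p = 0.0472). Its call was lost without control replicate 2 or 3 or any of valproic acid replicates 1, 2 and 3 (edgeR adjusted p up to 0.147). Whether Notch acts on Gas1 in these brains was not tested. Gas1 was also the pathway gene that differed between the exposures, with 41.4 ± 2.80 CPM in poly(I:C) brains (log2 change 0.27, edgeR adjusted p = 0.0434), a call lost without poly(I:C) replicate 1 or 2 or any of valproic acid replicates 1, 2 and 3 (up to 0.152). The repressor genes induced by Notch were not called by edgeR or DESeq2: Hes1 was at 15.5 ± 0.507, 17.8 ± 0.370 and 15.3 ± 1.5 CPM, Hes5 at 18.7 ± 2.63, 19.1 ± 1.42 and 14.1 ± 3.30 CPM and Hey1 at 34.3 ± 0.830, 32.1 ± 3.56 and 29.3 ± 1.48 CPM in valproic acid, poly(I:C) and control brains. Hes5 had a log2 change against control of 0.41 for valproic acid (SE 0.145, edgeR adjusted p = 0.109) and of 0.43 for poly(I:C) (SE 0.144, edgeR adjusted p = 0.228). Both passed in the fit with no filter on low counts (edgeR adjusted p = 0.00599 and 0.00678), and the difference for valproic acid also passed without control replicate 3 (0.0386). The fit with no filter also called Rbpj in poly(I:C) brains against control, where the groups overlapped, so its calls are weak evidence. In valproic acid brains Rbpj was at 63.6, 105 and 97.95 CPM, above all controls (60.6, 54.0 and 57.9 CPM), with replicate 1 close to them. Its log2 change against control was 0.63 and was not called (edgeR adjusted p = 0.0705). Rbpj passed in this comparison with no filter, with only the 6 libraries compared and without valproic acid replicate 1 (edgeR adjusted p = 0.0184 for the last).

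Markers of the cell types that carry these genes moved in the same comparison. Of 14 radial glia markers 4 rose and 1 fell under valproic acid against control, and their summed level was 2672 to 2784 CPM in valproic acid brains, 2573 to 2617 CPM in poly(I:C) brains and 2500 to 2554 CPM in control brains. Vim, an intermediate filament of radial glia, was 1.21-fold higher under valproic acid than in control brains (edgeR adjusted p = 4.53e-04), while Fabp7, a lipid-binding protein of the same cells, averaged 430 ± 21.3 CPM in valproic acid brains and 447 ± 11.5 CPM in control brains (edgeR adjusted p = 0.441). Of 11 proneural and intermediate progenitor markers 7 rose, and their sum was 1185 to 1241 CPM in valproic acid brains, 1061 to 1104 CPM in poly(I:C) brains and 1029 to 1070 CPM in control brains. Eomes, which marks intermediate progenitors, was 1.29-fold higher in valproic acid brains than in control brains (edgeR adjusted p = 4.53e-04). Of 14 postmitotic neuron markers 5 fell, with sums of 7818 to 8271 CPM in valproic acid brains, 8373 to 8830 CPM in poly(I:C) brains and 8422 to 8655 CPM in control brains. No marker of these lists was at 0 in any group. Neurog2, a proneural factor that activates Dll1 expression, was called in every comparison. It averaged 216 ± 6.90 CPM in valproic acid brains, 177 ± 6.66 CPM in poly(I:C) brains and 145 ± 5.61 CPM in control brains (SD, n = 3 each), with an edgeR adjusted p of 7.72e-06 and 0.00615 for the exposures against control and 0.00254 between them. Between valproic acid and poly(I:C), 1 radial glia marker was higher and 1 lower, 4 proneural and intermediate progenitor markers were higher and 4 neuron markers lower, beside 1.42% higher and 1.18% lower of all tested genes. The part of cell composition in the Notch gene changes was not tested.

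Calls among vessel markers went in both directions. Of 12 endothelial markers 1 rose, Pecam1 (1.18-fold, edgeR adjusted p = 0.0310), and the sums were 399.14 to 433.56 CPM in valproic acid brains, 381.04 to 399.08 CPM in poly(I:C) brains and 397.07 to 416.26 CPM in control brains. Valproic acid and control sums overlapped, and valproic acid sums lay just above those of poly(I:C). Its call was lost without control replicate 1 or 3 or valproic acid replicate 2 or 3 (edgeR adjusted p up to 0.108). Of 10 tested mural cell markers 7 had a log2 change below 0 (median -0.15) and 2 fell, the contractile gene Acta2 (log2 change -1.15, edgeR adjusted p = 0.00485) and the pericyte gene Rgs5 (-0.26, edgeR adjusted p = 0.0134), and Rgs5 missed the threshold once control replicate 1 was left out (edgeR adjusted p = 0.0673). Notch3 was thus higher under valproic acid while the 2 called mural markers were lower, and mural sums were 211 to 241 CPM in valproic acid brains, 218 to 223 CPM in poly(I:C) brains and 239 to 242 CPM in control brains, with the poly(I:C) sums below all control sums. The erythroid list summed to 2258 to 2619 CPM in valproic acid brains, 1386 to 2018 CPM in poly(I:C) brains and 1794 to 2093 CPM in control brains, with 4 of 10 called higher against control and 8 of 10 against poly(I:C). Of 12 microglia markers 2 fell and of 8 choroid plexus markers 0 were called by edgeR (0 at an unadjusted p of 0.05) or DESeq2 in valproic acid against control.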

How the data were processed

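Whole brain RNA of 9 samples at E14 was sequenced after depletion of ribosomal RNA, per the labels' protocols. The authors deposited raw read counts per Ensembl gene, used here as deposited. The submitters' processing notes name HISAT2 and the build GRCm39 (mm39). How reads were assigned to genes, and with which strand setting and annotation, is not given in the sources used here. Reads of overlapping genes therefore cannot be told apart. Symbols matched 52073 of 56748 IDs, and exon lengths and chromosomes came from GENCODE M21, which rests on an earlier build.

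Genes were filtered with filterByExpr (minimum count 10, total 15), leaving 17171, and scaled by TMM (factors 0.977 to 1.02). All 9 libraries entered 1 quasi-likelihood fit in edgeR 4.0.16 (R 4.3.3) with a mean per group, two-sided F-tests and Benjamini-Hochberg adjustment over all genes tested. The standard error is the log2 change divided by the root of F, and 95% intervals use it. Likeness used log2 CPM with a prior count of 2. Alternatives included DESeq2 1.42.0 (Wald test). No library was left out. Libraries of the same group were compared for copies and none was found: chi-square over its degrees of freedom was 3.84 to 6.28. Code was tested on simulated data.

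Members and lists were chosen with earlier results of these data known. All 10 members are named in every comparison. Of each pathway list, called genes were named, or the most abundant where none was, with Notch4, Rfng, Hes1, Hes5 and Hey1 always, and of each marker list a few called or abundant genes. Sox2, Tubb3 and the Xist and Y-linked genes are named as checks of tissue and sex. Some genes that this rule names are not reported here.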

Additional observations from a re-analysis of the deposited data

Results flagged for a closer look

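The effect of valproic acid and that of poly(I:C), each taken against control, differed for 3 of the 10 genes by the test of the difference, the comparison of the exposures with each other. The difference in log2 change was 0.48 for Notch2, 0.24 for Dll1 and 0.24 for Notch1 (edgeR adjusted p = 0.00436, 0.0250 and 0.0434, higher under valproic acid in 3 of 3 libraries against 3 poly(I:C) libraries for each gene). Notch2 lay above all controls in valproic acid brains and below all controls in poly(I:C) brains. The poly(I:C) change of Notch2 against control was small and not called (log2 change -0.08, edgeR adjusted p = 0.740). Of all tested genes, 8.83% lay below all controls in poly(I:C) brains. The calls of Dll1 and Notch1 did not hold when single libraries were left out, as given above. With Y-linked expression as a covariate only the call of Notch2 was kept, and with Xist all 3 calls were lost. Every valproic acid library had Xist, but of the poly(I:C) libraries only replicate 3 did, and the part of sex in these differences was not tested.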

How the results depend on the processing

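Of 540 values of the 10 genes under the alternatives, 502 kept their direction and side of the threshold or were uncalled in both fits, 36 lost a call, 2 gained one and 0 turned direction with a call. Most of the 540 values belong to genes without a call in the reported fit, which had none to lose. The 36 losses all fell on the 5 genes called for valproic acid against control and the 3 called between the exposures. For valproic acid against control, 5 of the 10 genes were called, 2 with Y-linked expression and 0 with Xist as a covariate, and 3 to 5 when a library was left out (3 without control replicate 1 or valproic acid replicate 2). For poly(I:C) against control the count was 0, 2 without a filter on low counts, and 0 to 0 when a library was left out. For valproic acid against poly(I:C) it was 3, 1 with Y-linked expression, 0 with Xist, and 1 to 3 when a library was left out (1 without poly(I:C) replicate 2 or 3 or valproic acid replicate 2 or 3). Over all genes 1090 were called for valproic acid against control, 92 for poly(I:C) against control and 445 between the exposures. These became 1661, 464 and 1057 without a filter, 272, 86 and 111 with Y-linked expression and 19, 42 and 39 with Xist. DESeq2 called 170 for poly(I:C) against control. Leaving out a library gave 467 to 1011, 38 to 124 and 112 to 439, with the lowest counts without control replicate 1, control replicate 1 and poly(I:C) replicate 2. The cause of these shifts was not tested.

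The shared replicate numbers did not pair the libraries: deviations of same-numbered libraries from their group means correlated at -0.042 to 0.131, and 3 of 9 libraries correlated best with one of their own number. With the replicate number as a block, 4 of the 10 genes were called for valproic acid against control, 0 for poly(I:C) against control and 1 between the exposures. Other scaling moved the median log2 change of all genes by at most 0.00115. Dll4, near 10 CPM, had the fewest counts and the widest intervals of the 10 genes.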
